A study of Mus musculus with 20 samples.

Results

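Eomes encodes eomesodermin, a T-box transcription factor. It is 1 of the 8251 genes that the array names by a single symbol, and its members here are every probe set that the platform annotation gives to the symbol Eomes alone, 2 of the 12488 probe sets on each of 20 arrays. The RNA came from CD8 T cells of OT-1 T cell receptor transgenic mice, strain C57Bl6, aged 6 to 8 weeks, and a transgenic receptor of this kind gives the T cells of a mouse one shared antigen specificity. CD44lo CD8+ cells, the phenotype of naive T cells, had been enriched from lymph nodes by removing other cells, per the labels' protocols. They were stimulated in culture with latex microspheres coated with a peptide complex of the class I molecule H-2Kb and the costimulatory protein B7-1, written Ag-B7. The cultures held Ag-B7 alone or Ag-B7 with murine rIL-12, with universal type I IFN (written IFNa/b) or with trichostatin A (TSA, an inhibitor of histone deacetylases). All stimulated cultures also contained human rIL-2, so the group called Ag-B7 is Ag-B7 with IL-2. There were 3 arrays of unstimulated naive cells (0 h). After 48 h of culture there were 4 arrays of Ag-B7 alone, 3 of the IL-12 cultures and 3 of the IFNa/b cultures. The remaining 7 groups are single arrays, namely these 3 treatments at 24 h and again at 72 h, and TSA at 72 h. The labels call the replicates biological without saying whether they came from separate mice or cultures, so p-values measure the spread between these arrays only. No group was cultured without Ag-B7.

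Eomes and its relative T-bet are the T-box factors best known in activated and memory CD8 T cells and in natural killer (NK) cells. Eomes binds T-box sites at effector genes such as those of perforin, granzyme B and interferon-gamma. It is also linked to the IL-2 and IL-15 receptor chain CD122 (Il2rb) and to the long-term survival of memory cells. IL-12 acts on its receptor through the kinases JAK2 and TYK2 and the factor STAT4. Type I interferons act through a complex with STAT2 and IRF9 that binds interferon-stimulated response elements (ISREs), while STAT dimers bind gamma-activated sites (GAS).

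Eomes lies on mouse chromosome 9 at 118478186 to 118486132 on the plus strand (RefSeq, GRCm38.p6), a gene of 7947 bases. The stretch just before its annotated start is printed because the agents compared here act through interferon and STAT signalling. The proximal promoter of Ifit1, a classical interferon-stimulated gene, is printed for comparison. Ifit1 was among the 8 genes most like Eomes over the 20 arrays (Pearson r = 0.495, Spearman rho = 0.397), a choice that moved with the arrays used. The Eomes stretch is chr9:118477939-118478185, plus strand, 247 bases, and ends at the base before the annotated gene. The Ifit1 stretch is chr19:34640764-34640853, plus strand, 90 bases. Capitals mark matches to the ISRE core, which was searched on both strands as GAAA followed after 2 free bases by GAAA, and, in Eomes, to TATAA.
Eomes: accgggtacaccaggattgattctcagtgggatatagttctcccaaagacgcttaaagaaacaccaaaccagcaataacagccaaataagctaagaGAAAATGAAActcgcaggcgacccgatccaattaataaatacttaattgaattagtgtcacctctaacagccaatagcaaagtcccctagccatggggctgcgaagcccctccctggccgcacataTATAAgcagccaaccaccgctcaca
Ifit1: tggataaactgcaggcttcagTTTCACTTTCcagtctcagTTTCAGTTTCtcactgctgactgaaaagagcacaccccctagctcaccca

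The Eomes match to the ISRE core, GAAAATGAAA, starts 154 bases before the transcript start used by the promoter table, at chr9:118478035-118478044, and the TATAA match starts 28 bases before it. The matches do not overlap. Of all 32851 promoter windows of 300 bases (250 before to 50 after a start), 3.44% held the ISRE core and 24.9% held TATAA. The full Eomes window held no match to the GAS letters, TTC and GAA separated by 3 free bases (in 8.3% of windows) or by 4 (6.95%), nor to the T-box letters GGTGTGA (3.98%), all searched on both strands. The motifs were chosen after the sequence had been read. A match is a run of letters and no match says only that these letters are not in this window.

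Both Eomes probe sets gave a value on every array, as a MAS5 signal, which is a linear fluorescence intensity scaled by the authors to a common array mean. The brighter probe set (93880_at) was above the dimmer one (103532_at) on 20 of 20 arrays, by a ratio of 1.91 to 33.6, and the 2 probe sets share every array and its scaling. They varied together across the arrays (Pearson r = 0.907, Spearman rho = 0.896 on the log2 scale, as a description). Unless the dimmer probe set is named, values are of the brighter one.

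In naive cells the Eomes signals were 555, 513 and 718 (dimmer probe set: 204, 269 and 188). At 48 h of Ag-B7 alone they were 1242, 146, 257 and 234 (dimmer: 322, 37.7, 7.64 and 74.3). Replicates 2, 3 and 4 thus lay below every naive array with both probe sets, and replicate 1 lay above them all with both. At 48 h of Ag-B7 with IL-12 the signals were 1091, 240 and 610 (dimmer: 320, 120 and 183), again with replicate 1 the highest. At 48 h of Ag-B7 with IFNa/b they were 931, 1033 and 1202 (dimmer: 275, 316 and 461). The IFNa/b arrays were the tightest stimulated group and lay above every naive array with both probe sets. In 26.9% of the 6278 genes tested the IFNa/b arrays likewise lay wholly above the naive arrays, so that separation by itself was common.

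With the brighter probe set the single arrays of the 3 treatments ran in the same order at 24 h and 72 h, and with the dimmer one Ag-B7 and IL-12 changed places at 24 h. At 24 h the Eomes signal was 225 with Ag-B7, 374 with IL-12 added and 1158 with IFNa/b added (dimmer: 99.8, 94.1 and 425). At 72 h it was 153 with Ag-B7, 184 with IL-12, 677 with IFNa/b and 2781 with TSA (dimmer: 75.0, 95.8, 349 and 769). The TSA array was the highest of all 20 arrays with both probe sets. Within its own array, Eomes stood at the 36.2nd percentile of all probe sets with Ag-B7 at 72 h and at the 88.6th with TSA. It stood between the 50.3rd and 61.5th percentile in naive cells and between the 72.3rd and 75.0th at 48 h with IFNa/b. The 4 Ag-B7 arrays at 48 h spanned the 40.7th to the 76.4th percentile.

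**Figure D1:**
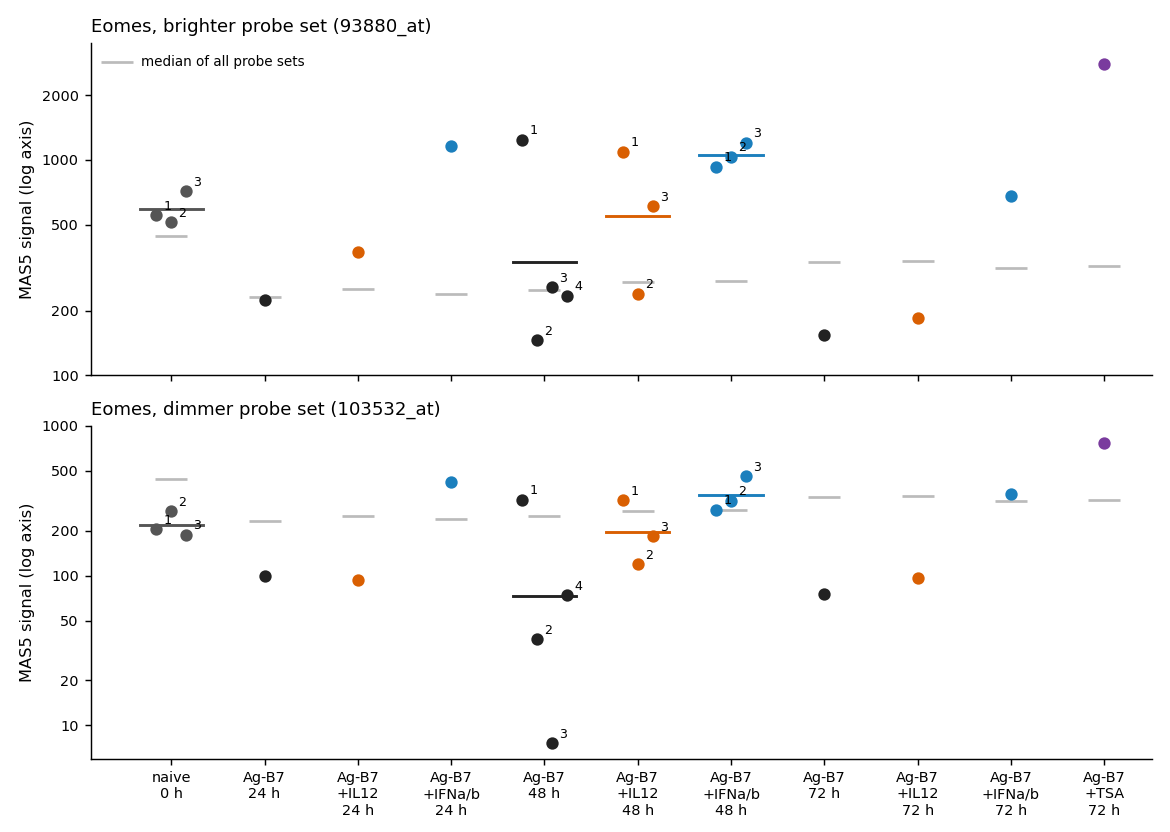
MAS5 signal (log axis) of the brighter (top) and dimmer (bottom) Eomes probe set on each of the 20 arrays, by group. Points are arrays, numbered by replicate where a group has several, coloured bars are group means on the log2 scale, and grey bars are the median of all probe sets. The 3 arrays with IFNa/b at 48 h lie between 931 and 1202 in the top panel, while the 4 Ag-B7 arrays at 48 h spread from 146 to 1242.

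On the scale log2(signal + 46.5), where 46.5 is a pseudocount, the Eomes group levels ran from 11.47 with TSA at 72 h to 7.64 with Ag-B7 at 72 h. All 3 IFNa/b groups came next after TSA, at 10.23 (24 h), 10.10 ± 0.18 (48 h; SD, n = 3) and 9.50 (72 h). Naive cells followed at 9.31 ± 0.24 (SD, n = 3), then IL-12 at 48 h at 9.22 ± 1.00 (SD, n = 3) and at 24 h at 8.72. Ag-B7 at 48 h stood at 8.57 ± 1.21 (SD, n = 4) and at 24 h at 8.08, IL-12 at 72 h at 7.85 and Ag-B7 at 72 h last. The pooled SD within groups was 0.85, and 9 of the 10 gaps between neighbours in this order were smaller than it. The exception was the gap of 1.23 between TSA at 72 h and IFNa/b at 24 h. In bulk RNA such as this, a different number of Eomes-expressing cells and a different amount of Eomes RNA per cell cannot be told apart.

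Eomes was among the genes that varied most between replicate arrays. Its residual SD of 0.85 in the fit of the 13 replicated arrays was larger than that of 98.2% of genes, whose median was 0.37. Ag-B7 replicate 1 at 48 h lay farthest from its group's mean. Over all genes that array did not stand apart from its group more often than the others: it was the far array of its group for 70 of the 6278 genes by a test for a lone outlying value, against 71, 104 and 85 for replicates 2, 3 and 4. Ag-B7 replicate 1 had signals of 32.4 for Ifit1 and 21.4 for the interferon-induced protease gene Usp18. On the IFNa/b arrays Usp18 was at least 2906 at 48 h. Why Eomes was high on Ag-B7 replicate 1 was not tested. Each limma comparison of the brighter Eomes probe set that uses Ag-B7 at 48 h is given with and without that array. The array was singled out by its Eomes value, so leaving it out lowers the Ag-B7 mean and the estimated spread by construction. P-values without it are descriptions and no separate support. The permutation tests given below were run only with that array included.

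The first comparison was that between naive cells and 48 h of Ag-B7. With all arrays Eomes differed by -0.74 ± 0.52 on the log2 scale (SE, n = 4 and 3, limma adjusted p = 0.224), which was not called. A call means a limma adjusted p below 0.05 over the 6278 genes, and 61.7% of genes were called in this comparison (26.1% higher and 35.6% lower). Without Ag-B7 replicate 1 Eomes fell by 1.33 ± 0.39 (limma adjusted p = 0.00942), where 57.6% of genes were called. The dimmer probe set gave -1.15 ± 0.51 with all arrays (limma adjusted p = 0.0596, in a fit of 7636 probe sets) and -1.69 ± 0.41 without replicate 1 (limma adjusted p = 0.00294). The direction turned, to 1.03, when the arrays were scaled to their hybridisation spike-in probe sets. In that scaling the median gene moved by 1.54, against -0.23 with the deposited scaling. Eomes lay -0.51 from the median gene under both. This was fixed in advance, since spike-in scaling shifts all genes of an array by the same log2 amount. With quantile normalization, which can change that distance, it was -0.26. Genes called higher and lower numbered 1640 and 2236 with the deposited scaling, 1940 and 1635 with quantile normalization, 2554 and 1001 with median centring and 4025 and 57 with spike-in scaling.

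NK cells also express Eomes. Of 14 NK cell markers 7 were on the array under a single symbol, and their summed signal was 869 to 2230 in naive cells, 293 to 614 with Ag-B7 at 48 h, 389 to 707 with IFNa/b at 48 h and 559 with TSA. Ncr1, the NK receptor NKp46, and the adaptors Tyrobp and Fcer1g stayed below the array median on all 20 arrays. The NK receptor genes Klra3 (at most 547) and Klra7 (at most 861) were above it on 2 arrays each, and under the deposited scaling both were called lower at 48 h than in naive cells with Ag-B7, IL-12 and IFNa/b. The sum was higher in naive cells than in any Ag-B7 array at 48 h, and its part in the Eomes difference from naive cells was not tested. The sum was 451 on Ag-B7 replicate 1, inside the range of its group. All 11 CD8 T cell markers on the array, of 12 listed, were above the array median on all 20 arrays. Of 15 myeloid and dendritic cell markers 14 were on the array, and their summed signal was 15010 to 19164 in naive cells. At 48 h it was 2675 to 5364 with Ag-B7, with replicate 1 the highest at 5364. It was 2794 to 2992 with IL-12 and 4759 to 5065 with IFNa/b, so higher with IFNa/b, as mean Eomes was. Of the 9 kept members only Ctss, with signals of 771 to 10838, was called between these cytokines at 48 h, where 0.94% of all genes were called. The median log2 difference of the 9, IL-12 minus IFNa/b, was -0.20 at 48 h and 0.07 over the times. At 72 h the sum was highest with Ag-B7 (10170), where Eomes was lowest, against 8841 with IFNa/b and 6656 with TSA. Of these markers Lyz2, the macrophage lysozyme gene, and Itgam (CD11b) were below the array median on all 20 arrays, while Cd14 and Ctss were above it on all 20, Csf1r on 17, Cd68 on 11 and Itgax on 9. Some other summed signals were also higher in naive cells than with Ag-B7 at 48 h. That of the reference genes (5 of 7 on the array) was 85439 to 89719 in naive cells and 52979 to 57713 with Ag-B7. For B cell markers (11 of 12 on the array) the ranges were 13465 to 18440 and 6103 to 12943. For erythroid and platelet markers (3 of 8) they were 6210 to 14512 and 411 to 693, and for stromal and endothelial markers (7 of 8) 4683 to 12370 and 2104 to 3470. The part of these cells in the Eomes values was not tested. Naive replicates 2 and 3 had actin 3' to 5' signal ratios of 2.06 and 1.61, against 1.13 on naive replicate 1 and at most 1.15 on stimulated arrays.

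With IFNa/b added, mean Eomes was higher than with Ag-B7 alone at each of the 3 times with both probe sets, and it rose by the test over the times together. At 48 h the IFNa/b arrays exceeded the Ag-B7 arrays in 9 of 12 pairs of arrays (10 of 12 with the dimmer probe set), all exceptions being pairs with Ag-B7 replicate 1. The log2 difference at 48 h was 1.52 ± 0.52 (95% confidence interval 0.43 to 2.62, n = 3 and 4), a 2.88-fold difference, with a limma adjusted p of 0.577, where 0.43% of genes were called. Without Ag-B7 replicate 1 it was 2.11 ± 0.39 (limma adjusted p = 0.0273, with 0.335% of genes called). The single arrays gave 2.15 at 24 h, a 4.44-fold difference, and 1.86 at 72 h, a 3.62-fold difference. By size of rise Eomes ranked 14th of 6278 genes at 24 h, 27th at 48 h and 46th at 72 h. At least 2-fold higher were 1.69% of genes with IFNa/b at 24 h and 3.93% at 72 h. With the dimmer probe set the differences were 1.69, 1.71 and 1.70 at 24, 48 and 72 h.

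Averaged over the times, in a fit of the 16 stimulated arrays without TSA with treatment and time as terms, Eomes was higher with IFNa/b by 1.71 ± 0.40 (95% confidence interval 0.88 to 2.54, limma adjusted p = 0.0378), which is 3.27-fold. In that comparison 1.32% of genes were called, 62 higher (0.988%) and 21 lower (0.335%), and Eomes ranked 71st by p-value. The dimmer probe set gave 1.72 ± 0.38 (limma adjusted p = 0.0337). An exact permutation test of the treatment labels within each time, two-sided over 140 arrangements, gave p = 0.0357 for the brighter probe set (0.0714 adjusted over IL-12 and IFNa/b) and p = 0.0286 (0.0571) for the dimmer one. The smallest p-value this design can give is 0.00714.

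That call depended on which arrays were kept. Without Ag-B7 replicate 1 at 48 h, an array singled out by its high Eomes value, the estimate was 2.07 ± 0.29 (limma adjusted p = 0.000774). The call also remained without IL-12 replicate 1 or 2 at 48 h or the IL-12 array at 72 h. It was lost on leaving out any one of the other 12 arrays, with estimates of 1.52 to 1.80 and limma adjusted p-values of 0.0516 to 0.129. Those 12 were all 3 IFNa/b arrays at 48 h, Ag-B7 replicates 2, 3 and 4 and IL-12 replicate 3 at 48 h, each array at 24 h, and the Ag-B7 and IFNa/b arrays at 72 h. The difference kept its sign in all of them.

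**Figure D2:**
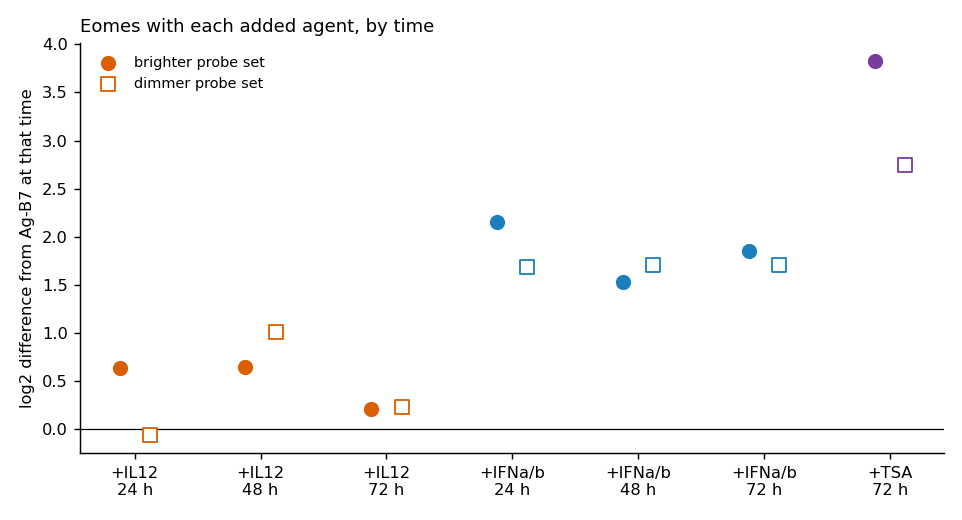
Log2 difference of Eomes from Ag-B7 at the same time (vertical axis) for each added agent and time, with the brighter probe set as filled circles and the dimmer one as open squares. IFNa/b lies between 1.52 and 2.15 at all 3 times, IL-12 between -0.06 and 1.02, and TSA at 3.82 and 2.75; the points at 24 h and 72 h rest on 1 array a group.

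With IL-12 added, Eomes did not pass the test at 48 h or over the times, and the single arrays at 24 h and 72 h allow none. IL-12 arrays exceeded Ag-B7 arrays at 48 h in 8 of 12 pairs, and the log2 difference was 0.65 ± 0.52 (limma adjusted p = 0.998, with 0.621% of genes called). Leaving out 1 array moved it, to 0.19 without IL-12 replicate 1, 0.32 without Ag-B7 replicate 2, 1.18 without IL-12 replicate 2 and 1.24 without Ag-B7 replicate 1. In both groups replicate 1 was the highest and replicate 2 the lowest, and each of these runs kept the same-numbered array of the other group. The labels state no pairing, and with the replicate number as a block the difference was 0.50. The arrays at 24 h and 72 h differed by 0.63 and 0.21, where 2.15% and 5.22% of genes were at least 2-fold higher. The dimmer probe set differed by -0.06, 1.02 and 0.23 at 24, 48 and 72 h, and its value at 24 h turned to 0.02 with spike-in scaling. Over the times the difference was 0.55 ± 0.40 (95% confidence interval -0.28 to 1.38, limma adjusted p = 0.653, with 2.05% of genes called), so a rise of up to 2.61-fold lies within the interval. An exact permutation test within times gave p = 0.329 for the brighter and 0.214 for the dimmer probe set. Without Ag-B7 replicate 1 the difference over the times was 0.91 ± 0.29 (limma adjusted p = 0.170), and it was 0.27 without IL-12 replicate 1 and 0.36 without Ag-B7 replicate 2. Both cytokine comparisons use the same Ag-B7 arrays, so a low or high Ag-B7 array moves them together.

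The cytokines were also compared with each other, which does not involve the Ag-B7 arrays directly. At 48 h Eomes was lower with IL-12 than with IFNa/b by a log2 difference of -0.87 ± 0.55 (limma adjusted p = 0.999, with 0.94% of genes called), and the IL-12 array was the higher one in 2 of 9 pairs. It was -0.34 without IL-12 replicate 2 and -1.34 without IL-12 replicate 1. Over the times the difference was -1.16 ± 0.41 (95% confidence interval -2.03 to -0.29, limma adjusted p = 0.259, with 2.07% of genes called). Without Ag-B7 replicate 1, which changes the estimate of the spread, the same difference had a limma adjusted p of 0.0484, where 2.09% of genes were called, but in the fit of 7636 probe sets it was not called for the brighter (limma adjusted p = 0.0556) or the dimmer probe set (-1.06 ± 0.32, limma adjusted p = 0.155). Compared with naive cells, Eomes at 48 h differed by -0.09 ± 0.55 with IL-12 (limma adjusted p = 0.898, with 58.8% of genes called) and by 0.79 ± 0.55 with IFNa/b (limma adjusted p = 0.229, with 58.4% called). With median centring the IFNa/b difference from naive cells was 1.41 (limma adjusted p = 0.0454), and the IL-12 one turned to 0.52.

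Eomes was not called between times. Over the treatments, 24 h differed from 48 h by -0.29 ± 0.43 (limma adjusted p = 0.735, with 12.9% of genes called). The 72 h arrays differed from the 48 h arrays by -0.97 ± 0.43 (limma adjusted p = 0.0865, with 36.2% called), and the 72 h signal was below the 24 h signal in each of the 3 treatments with the brighter probe set (with the dimmer one, the IL-12 array was at 95.8 against 94.1). The dimmer probe set differed between 72 h and 48 h by -0.23 ± 0.42, and by -0.06 ± 0.34 without Ag-B7 replicate 1. With the brighter probe set and without Ag-B7 replicate 1, 24 h differed from 48 h by -0.09 ± 0.31 (limma adjusted p = 0.891, with 12.4% of genes called). The 72 h difference was then -0.77 ± 0.31 (limma adjusted p = 0.0592, with 35.8% called). It passed the test without Ag-B7 replicate 2 (-1.08, limma adjusted p = 0.0493) and without IL-12 replicate 2 (-1.10, limma adjusted p = 0.0462). Whether the cytokine effects differed between times was not tested, since 24 h and 72 h have 1 array a treatment.

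**Figure D3:**
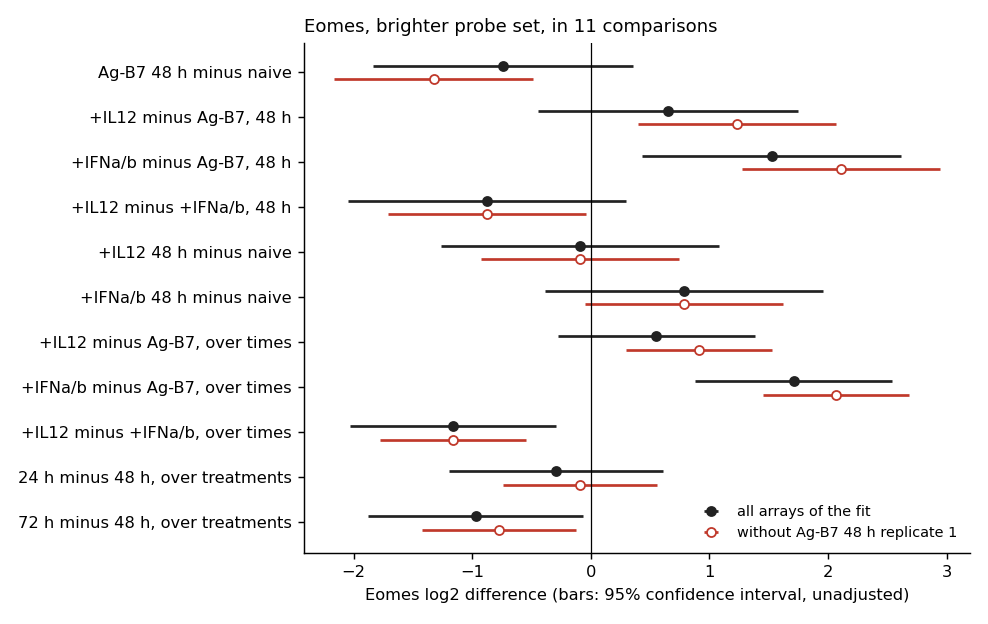
Log2 difference of Eomes (brighter probe set, horizontal axis) in each of the 11 comparisons, with 95% confidence intervals that are not adjusted for the number of genes. Filled points use all arrays of the fit and open points leave out Ag-B7 replicate 1 at 48 h; IFNa/b against Ag-B7 over the times lies at 1.71 and 2.07.

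TSA gave the highest Eomes signal of the series with both probe sets. On its single array at 72 h Eomes was 3.82 above Ag-B7 on the log2 scale, a 14.1-fold difference, and 2.75 with the dimmer probe set, a 6.72-fold difference. With no replicate there is no test, and 7.09% of genes were at least 2-fold higher and 8.97% at least 2-fold lower. Eomes had the 4th largest rise of the 6278 genes. Next to it, chosen after their values were seen, stood Crabp2 (4.15), a retinoic acid binding protein gene, Scx (3.94), a basic helix-loop-helix factor gene of tendon, and the cytokine and chemokine genes Tnf (3.88), Ccl4 (3.50) and Lta (3.36). Against the other 72 h arrays Eomes was 1.97 higher with TSA than with IFNa/b and 3.62 higher than with IL-12. The difference from Ag-B7 kept its sign under all 3 other scalings.

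The histone acetylation list holds the deacetylases that TSA inhibits. Of its 13 members kept by the filter on dim genes, of 23 listed, Hdac2 (1.22) and the acetyltransferase gene Kat2a (1.05) were at least 2-fold higher with TSA, and Crebbp and Kat2b at least 2-fold lower. Of all genes 7.09% were at least 2-fold higher with TSA and 8.97% at least 2-fold lower, the shares for each list in this paragraph. None of the 13 was called with IL-12 or IFNa/b over the times, where 2.05% and 1.32% of all genes were called. Of the Eomes-linked effector genes, 4 of 12 were at least 2-fold higher with TSA: Tnf, Ifng (2.97), the chemokine gene Xcl1 (2.45) and Gzmb (2.09). Another 3 were at least 2-fold lower, the chemokine receptor gene Cxcr4 (-3.16), the NK receptor chain gene Klrd1 (-2.79) and the chemokine gene Ccl5 (-1.04). Prf1 differed by 0.26 and Il2rb by -0.55. Of 12 central memory genes none was 2-fold higher with TSA and 5 were 2-fold lower, Il7r (-1.97) and S1pr1 (-1.77) among them.

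The effector genes that Eomes is linked to were then set beside it. Of the 16 listed, 15 were on the array and 12 were kept. With IL-12 over the times 5 of the 12 rose and none fell, with a median log2 difference of 0.21 against -0.01 over all genes, of which 1.27% rose and 0.781% fell. With IFNa/b 2 of 12 rose and none fell, with a median of 0.34 against 0.00 over all genes, of which 0.988% rose and 0.335% fell. Ifng, the interferon-gamma gene, had signals of 13398 with IL-12, 1765 with IFNa/b and 709 with Ag-B7 at 24 h. At 48 h it was 6161 to 8274 with IL-12, 1498 to 2742 with IFNa/b and 100.2 to 1171 with Ag-B7, so the 3 groups did not overlap. Of all genes, 3.55% lay wholly above Ag-B7 with IL-12 and 3.28% with IFNa/b at 48 h, and 6.04% lay wholly higher with IL-12 than with IFNa/b.

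Ifng, unlike the Eomes estimates, was higher with IL-12 than with IFNa/b. It rose by 4.09 ± 0.41 with IL-12 (limma adjusted p = 2.0e-05) and by 1.89 ± 0.41 with IFNa/b (limma adjusted p = 0.0240), and the difference between them was 2.21 ± 0.42 (limma adjusted p = 0.00524). Its IFNa/b call was lost without any one of the IFNa/b arrays at 48 h or Ag-B7 replicate 2 (limma adjusted p 0.0577 to 0.0979). Gzmb, the granzyme B gene, rose with both, by 1.04 ± 0.16 and 1.07 ± 0.16 (limma adjusted p = 0.00158 and 0.000959), and the difference was -0.03 ± 0.17 (95% confidence interval -0.38 to 0.32). Prf1, the perforin gene, rose with IL-12 by 1.31 ± 0.31 (limma adjusted p = 0.0299) and differed by 0.62 ± 0.31 with IFNa/b. The Prf1 call was lost on leaving out any of 5 arrays, Ag-B7 replicate 1, IL-12 replicates 2 and 3 at 48 h and the Ag-B7 and IL-12 arrays at 72 h (limma adjusted p 0.0506 to 0.129). Fasl, the death ligand gene, rose with IL-12 by 1.41 ± 0.25 (limma adjusted p = 0.00446) and differed by 0.97 ± 0.25 with IFNa/b.

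**Figure D4:**
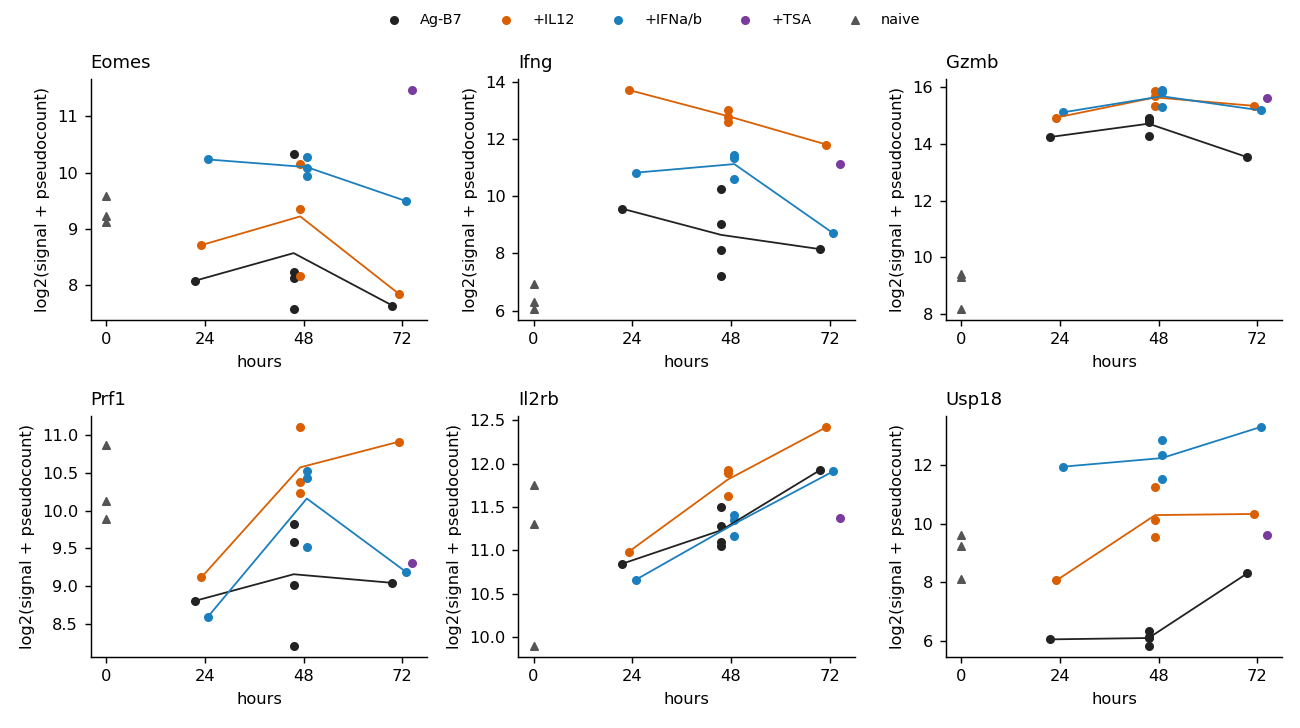
Log2(signal + 46.5) of Eomes and of Ifng, Gzmb, Prf1, Il2rb and Usp18 against hours in culture. Points are arrays, lines join group means of one treatment, triangles are naive cells, and points of one time are set side by side. By group mean, Eomes and Usp18 are highest with IFNa/b among the 3 treatments at each time, and Ifng with IL-12. The highest single Eomes point at 48 h is Ag-B7 replicate 1.

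Correlations between Eomes and its linked effector genes depended on the arrays used. Pearson's r with Eomes over the 20 arrays, as a description of arrays that share treatments and scaling, was 0.10 for Ifng, 0.07 for Gzmb, -0.13 for Prf1 and -0.15 for Il2rb. Over the 17 stimulated arrays it was 0.18 for Ifng, 0.45 for Gzmb, -0.15 for Prf1 and -0.22 for Il2rb. The 8 genes most like Eomes among 3776 candidates were Cd74 (r = 0.595), Ms4a4c (0.540), Slc4a3 (0.528), Usp18 (0.527), Mpeg1 (0.515), Ifit1 (0.495), Rnd2 (0.492) and Ddx24 (0.491). Cd74 encodes the invariant chain of class II molecules, and Usp18 and Ifit1 are interferon-stimulated genes. Mpeg1 is on the list of myeloid and dendritic cell markers. It was the 1 of 9 kept members of that list that rose with IFNa/b over the times, where 0.988% of all genes rose. The choice moved with the arrays used: 2 of these 8 genes were also among the closest 8 over the 17 stimulated arrays, 2 over the 11 group means and 4 after quantile normalization. Of Eomes and the 8, 6 had a promoter window, and the ISRE core stood in those of Eomes and Ifit1, against 3.44% of all windows. Eomes itself is in this set and its sequence was read before the motifs were chosen, so no enrichment is drawn from the count.

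Over the times, Ifit1 differed by -0.37 ± 0.26 with IL-12 and rose by 3.29 ± 0.26 with IFNa/b (limma adjusted p = 4.4e-07). Usp18 rose with both, by 3.39 ± 0.37 and 5.93 ± 0.37 (limma adjusted p = 4.1e-05 and 3.7e-08). The IL-12 minus IFNa/b difference was -3.66 ± 0.27 for Ifit1 and -2.54 ± 0.38 for Usp18 (limma adjusted p = 1.3e-07 and 0.000482), of the same sign as the Eomes difference of -1.16, which was not called. With TSA at 72 h, where Eomes was highest, Usp18 was 1.30 and Ifit1 0.99 above Ag-B7, below their rises with IFNa/b at 72 h of 4.99 and 3.48.

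**Figure D5:**
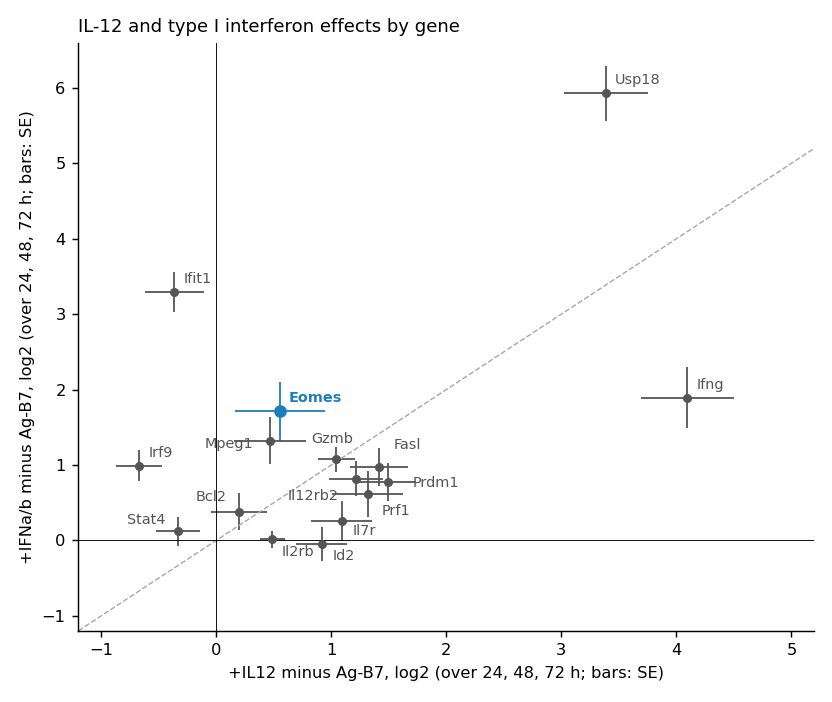
Log2 difference from Ag-B7 over 24, 48 and 72 h with IL-12 (horizontal axis) and with IFNa/b (vertical axis) for Eomes (blue) and 15 other genes; bars are standard errors and the dashed line marks equal differences. Both axes use the same Ag-B7 arrays. Eomes lies above the line at 0.55 and 1.71, with Ifit1 and Usp18, while Ifng lies below it at 4.09 and 1.89.

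The genes that carry cytokine signals to the nucleus were listed as inputs to Eomes. Of 22 such genes kept, of 27 listed, 3 rose with IL-12 (Il12rb2, Il2ra and Stat5a) and 1 fell (Ifnar1), where 1.27% of all genes rose and 0.781% fell. With IFNa/b 1 rose (Irf9), where 0.988% of all genes rose and 0.335% fell. Il12rb2, the signalling chain of the IL-12 receptor, rose with IL-12 by 1.21 ± 0.23 (limma adjusted p = 0.00881) and differed by 0.82 ± 0.23 with IFNa/b. Stat4, the main STAT downstream of IL-12, differed by -0.33 ± 0.19 and 0.12 ± 0.19. Irf9, the DNA-binding partner of STAT2, rose with IFNa/b by 0.99 ± 0.20 (limma adjusted p = 0.0154). The Irf9 call was lost without either of the Ag-B7 and IFNa/b arrays at 24 h or IFNa/b replicate 2 or 3 at 48 h, and with spike-in scaling (limma adjusted p 0.0512 to 0.0657). From naive cells to 48 h of Ag-B7, 5 of the 22 rose and 10 fell, of which Ifnar1, Stat5a and Stat3 turned positive with spike-in scaling. Of all genes 26.1% rose and 35.6% fell there. Il12rb2 rose in that comparison by 2.10 ± 0.46 (limma adjusted p = 0.00106) and Il2ra, the inducible IL-2 receptor chain, by 3.00 ± 0.43.

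Eomes is one of several transcription factors of CD8 T cell fate. Of 20 others kept, of 29 listed, 4 rose with IL-12 (Bhlhe40, Id2, Prdm1 and Rbpj) and 3 fell (Gata3, Myb and Nfatc1), against 1.27% and 0.781% of all genes, while none was called with IFNa/b, where limma calls 1.32% of all genes. Prdm1, the gene of the effector factor Blimp-1, rose with IL-12 by 1.49 ± 0.25 (limma adjusted p = 0.00292) and differed by 0.78 ± 0.25 with IFNa/b. Directly between the cytokines Id2 was higher with IL-12 and Nfatc1 lower, 2 of the 20, where 0.924% of all genes were called higher and 1.15% lower. Eomes, with the opposite order of its estimates, was not called in that direct comparison. Of 16 other T-box genes 5 were on the array and only Tbx6 was kept, at 0.17 ± 0.29 with IL-12 and -0.29 ± 0.29 with IFNa/b. Tbx21 (T-bet), Tcf7 and Runx3 were not analysed here.

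Genes of central memory cells, with which Eomes is also linked, showed 1 call with a cytokine. Of 12 kept, of 15 listed, Il7r, the IL-7 receptor chain gene, rose with IL-12 by 1.09 ± 0.27 (limma adjusted p = 0.0424), a call that 13 alternative settings ended, and none was called with IFNa/b. Of all genes 2.05% were called with IL-12 and 1.32% with IFNa/b. Bcl2, the survival factor gene, differed by 0.19 ± 0.24 with IL-12 and 0.38 ± 0.24 with IFNa/b. Il2rb, the receptor chain through which Eomes is linked to memory survival, had signals of 2068 to 2839 with Ag-B7, 3106 to 3855 with IL-12 and 2239 to 2660 with IFNa/b at 48 h. It rose with IL-12 by 0.49 ± 0.11 (limma adjusted p = 0.0274), a call that 8 alternative settings ended, and differed by 0.01 ± 0.11 with IFNa/b.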

How the data were processed

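RNA was measured on 1-colour Affymetrix arrays from 10 ug of total RNA each, per the labels' protocols. The authors deposited 1 intensity per probe set, a MAS5 signal per the submitters' processing notes. No source used here gives its version or target. The deposited means, trimmed by 2% at each end, were 1000.46 to 1000.74 on every array, which makes differences relative to an array's total signal, and medians were 232 to 507. The number of arrays limits the precision.

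Values were analysed as log2(intensity + 46.5), the median over arrays of the 20th percentile, which understates changes of dim genes. The brightest probe set with 1 symbol stood for each of 8251 genes. Genes that exceeded the 40th percentile of an array on 3 or more of the 13 replicated ones, 6278 in all, were tested in limma 3.58.1 (R 4.3.3), two-sided with Benjamini-Hochberg adjustment. One fit held group means of those 13 arrays. The other held treatment plus time over 16 stimulated arrays. Scripts were tested on simulated data.

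Named genes were the Eomes probe sets, the 8 genes with the highest r among those with a log2 SD of at least 0.5, preset effector, fate and memory genes, and called members of preset lists. Members and lists were chosen with earlier results of these data known. Same-numbered replicates deviated together at like strength in every pair only between IL-12 and Ag-B7 at 48 h (correlations of 0.28, 0.28 and 0.28), where the labels state no pairing. Single pairs of the other comparisons ranged from -0.10 (IFNa/b with Ag-B7, replicate 3) to 0.27 (IL-12 with naive, replicate 1). Alternatives were 3 scalings, 2 pseudocounts, no filter, a replicate block, all groups in the fit and leaving out each array. Fitting all probe sets of 1 symbol, 7636 kept, was added after seeing the data. Promoter sequences are from RefSeq (GRCm38.p6).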

Additional observations from a re-analysis of the deposited data

Results flagged for a closer look

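Eomes on Ag-B7 replicate 1 at 48 h lay apart from the other arrays of its group. The gap from its signal of 1242 to the next array was 0.899 of the group's range, past the limit of 0.829 for a lone value among 4, and on the log2 scale the array was inside the limit. Of 61 group and gene combinations tested, 4 passed it, where chance gives about 1 in 20. The others were log2 values of Ag-B7 at 48 h. Slc4a3, among the 8 genes most like Eomes over the 20 arrays, had a ratio of 0.986. Its replicate 1 was low (signal 97.2 against 153.5 to 154.4), where Eomes was high. Bcl2l1, a survival gene, had 0.948, with replicate 4 high (3567 against 1549 to 1619). Il7r had 0.863, with replicate 2 high (675 against 310 to 346).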

How the results depend on the processing

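With the brighter probe set, the fitted comparisons of Eomes among stimulated groups and of IFNa/b with naive cells kept their sign in every alternative run, and the other comparisons with naive cells did not. With the dimmer one, 24 h minus 48 h turned to 0.11 without Ag-B7 replicate 1. Ag-B7 minus naive was 1.03 with spike-in scaling and -1.33 to -0.41 on leaving out arrays. IL-12 minus naive was 0.35 with quantile normalization, 0.52 with median centring and 1.48 with spike-in scaling (limma adjusted p = 0.0241), and -0.55 to 0.44 on leaving out arrays. IFNa/b minus naive passed the test at 1.41 with median centring and 2.64 with spike-in scaling. IFNa/b minus Ag-B7 was 1.20 to 2.11 at 48 h and 1.52 to 2.07 over the times on leaving out arrays, and over the times it missed the threshold at 1.70 with median centring (limma adjusted p = 0.0521) and 1.71 with no filter (limma adjusted p = 0.0574). On leaving out arrays IL-12 minus Ag-B7 was 0.19 to 1.24 at 48 h and 0.27 to 0.91 over the times, and IL-12 minus IFNa/b at 48 h was -1.34 to -0.34. IL-12 minus IFNa/b over the times was -1.44 to -0.91 on leaving out arrays. The 72 h minus 48 h difference passed at -1.15 with quantile normalization and -1.24 with median centring, and was -1.10 to -0.77 on leaving out arrays. The causes were not tested.

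Counts of called genes moved by over 1.5 times in some settings. With spike-in scaling they were 7 for IL-12 and 14 for IFNa/b against Ag-B7 at 48 h, 37 between the cytokines at 48 h, 56, 45 and 77 for the same comparisons over the times, 251 for 24 h and 1083 for 72 h against 48 h. With median centring the first count was 23. The main counts were 39, 27, 59, 129, 83, 130, 812 and 2273. On leaving out arrays they were 16 to 54 (IL-12) and 14 to 32 (IFNa/b) at 48 h, 75 to 163 (IL-12) and 46 to 130 (IFNa/b) over the times, 221 to 929 at 24 h and 1515 to 2334 at 72 h. From naive to Ag-B7, genes called as lower turned with spike-in scaling: Prf1 0.63, Mpeg1 0.089, Klrd1 0.071, Cxcr4 0.45, Ccl5 0.31, Tbx6 0.38, Ifnar1 0.97, Stat5a 0.38, Stat3 0.36 and Hdac5 0.51. Of the other named-gene values 1502 kept their call and 195 lost it.

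With the replicate number as a block, Eomes differed from Ag-B7 at 48 h by 0.50 with IL-12 and 1.38 with IFNa/b (limma adjusted p = 0.340), and Ag-B7 from naive by -0.59. The block was used only in the fit of group means, where Eomes was not called in any comparison with or without it. The comparisons over the times, including the IFNa/b call, were not run with the block.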

Other observations

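From naive cells to 48 h of Ag-B7, the genes around Eomes moved in both directions. Of the 12 Eomes-linked effector genes kept, 4 rose and 5 fell, and of the latter Prf1, Klrd1, Cxcr4 and Ccl5 turned positive with spike-in scaling. Gzmb rose by 5.75 ± 0.27, the chemokine gene Xcl1 by 3.39 ± 0.54 and Ifng by 2.22 ± 0.49 (limma adjusted p = 7.6e-11, 6.5e-05 and 0.00112). Gzma, a second granzyme gene, differed by -2.46 ± 0.45 (limma adjusted p = 0.000213). Of the 20 fate factors 5 rose and 7 fell, with Irf4, a factor of T cell receptor strength, at 3.31 ± 0.44 and Runx1 at -2.33 ± 0.38. Of the 13 histone acetylation genes 6 rose and 3 fell (Hdac5 turned positive with spike-in scaling), with Sap30, a subunit of the Sin3 deacetylase complex, at 3.06 ± 0.27. In this comparison 26.1% of all genes rose and 35.6% fell, and Eomes was not called.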
